A study of Mus musculus with 8 samples.

Results

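The comparison described here is the interaction of tissue and Gr-1 subset in myeloid cells of sanroque mice: for each gene, the log2 difference between Gr-1hi and Gr-1lo cells in the spleen (SP) minus the same difference in the bone marrow (BM). All 8 libraries of the raw count table enter it, so its 8 members are the whole of the series, and 17650 of the 54188 genes in the table had enough counts to be tested. A positive interaction means that a gene stood relatively higher in Gr-1hi cells of the SP than of the BM, and a negative one that it stood relatively lower. Emphasis is on the 9560 genes with at least 10 CPM (counts scaled to library size) in both libraries of 1 or more groups. Each interaction is given on the log2 scale ± its standard error, and its p-value comes from the quasi-likelihood test of edgeR, adjusted over the 17650 genes by the procedure of Benjamini and Hochberg.

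Poly(A) RNA was sequenced from CD11b+Gr-1hi and CD11b+Gr-1lo cells, sorted from the SP and BM of C57BL/6 mice homozygous for the san allele of Roquin (Rc3h1), Roquin(san/san), at about 20 weeks of age and labelled female. The 4 groups of 2 libraries were San_hi (SP Gr-1hi, libraries 5 and 6), San_low (SP Gr-1lo, libraries 7 and 8), BM_hi (BM Gr-1hi, libraries 9 and 10) and BM_low (BM Gr-1lo, libraries 11 and 12). The labels call Gr-1hi cells granulocytic and Gr-1lo cells monocytic myeloid-derived suppressor cells. The san allele is shared by all 8 libraries and is present in every cell of the mice, no wild-type cells enter the comparison, and the labels do not say which libraries came from 1 mouse.

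Roquin is an RNA-binding protein that promotes the decay of mRNAs, among them those of costimulatory receptors and cytokines, and sanroque mice develop a lupus-like disease. CD11b is the integrin alpha M chain of myeloid cells, and the Gr-1 antibody binds Ly6G, which marks neutrophils, and less strongly Ly6C, which is carried by monocytes as well. As neutrophils mature in the marrow they make their granule proteins in waves, primary before secondary before tertiary granules, while ribosome production, DNA replication and cell division are shut down. The interaction asks which of these differences between granulocytic and monocytic cells were kept, reduced or enlarged in the spleen.

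The libraries held 33453580 to 68316154 counts and were scaled by the trimmed mean of M-values (TMM). At these depths 3 counts stand at 0.0348 to 0.124 CPM. The sort markers followed the labels. Ly6g measured 3.07 and 5.35 CPM in BM Gr-1lo, 685 and 801 in BM Gr-1hi, 5.74 and 8.23 in SP Gr-1lo and 330.0 and 495 in SP Gr-1hi cells, and Itgam, which encodes CD11b, measured 877 and 734 CPM in BM Gr-1lo, 4885 and 4904 in BM Gr-1hi, 983 and 952 in SP Gr-1lo and 2739 and 3511 in SP Gr-1hi cells. Ly6g itself had an interaction of -1.59 ± 0.42 (edgeR adjusted p = 0.0456), a call that was lost without library 5, 7, 8, 9, 10 or 11. Csf1r, the receptor that monocytes depend on, was higher in Gr-1lo cells in both tissues, at 471 and 436 CPM in BM Gr-1lo, 175 and 133 in BM Gr-1hi, 663 and 754 in SP Gr-1lo and 375 and 264 in SP Gr-1hi cells. Rc3h1 had no called interaction, at 0.03 ± 0.14 (edgeR adjusted p = 0.906). Other checks went against the labels or set libraries apart.

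All samples were labelled female, yet Xist, the transcript of the inactive X chromosome, had 12032 counts in library 5 and 9898 in library 7 and 0 to 5 counts in each of the other libraries, while the Y-linked Ddx3y had 0 counts in library 5 and 1595 to 4902 counts in the others. Library 7 held both. Over all genes, libraries 5 and 6 differed from each other by 66.7 times the variance that counting alone gives, and the libraries of the other groups by 18.9 to 21.3 times. Every interaction rests on these libraries, so the text gives counts with all 8 libraries and, where a list's count moved by more than 1.5 times, without libraries 5 and 7. With all 8 libraries, 950 of the 9560 genes of at least 10 CPM (9.94%) were called for their interaction, and without libraries 5 and 7 the count was 595, of which 556 were among the 950 (58.5% of the 950 and 93.4% of the 595).

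Transcripts of lymphoid cells differed between the groups in the same libraries. The 20 genes of the B cell list summed to 1871 and 1169 CPM in SP Gr-1hi cells, 409 and 652 in SP Gr-1lo, 210.4 and 187 in BM Gr-1hi and 228 and 284 in BM Gr-1lo cells. The 21 genes of the T cell list summed to 276 and 172 CPM in SP Gr-1hi, 58.1 and 84.4 in SP Gr-1lo, 32.2 and 30.1 in BM Gr-1hi and 6.31 and 6.61 in BM Gr-1lo cells. The 15 genes of the plasma cell list summed to 2465 and 2303 CPM in SP Gr-1hi, 1865 and 2337 in SP Gr-1lo, 224 and 206 in BM Gr-1hi and 460.4 and 536 in BM Gr-1lo cells. B and T cell transcripts were thus highest in SP Gr-1hi cells, and the groups did not overlap there, while plasma cell transcripts were high in both SP groups. The 17 erythroid genes in the table summed to 237 and 754 CPM in libraries 5 and 6 of SP Gr-1hi cells and to 49.6 and 61.4 CPM in BM Gr-1hi cells. In bulk RNA, fewer cells of a type and less RNA per cell cannot be told apart. The sums of the 32 monocyte genes did not follow this order. They were 6992 and 6833 CPM in SP Gr-1hi and 6769 and 7134 CPM in BM Gr-1hi cells, 2 ranges that overlapped. In Gr-1lo cells they were 20484 and 21259 CPM in the SP and 23683 and 23108 CPM in the BM. A sum weighs abundant genes most. The median SP minus BM difference of the monocyte genes was 0.58 in Gr-1hi and 0.05 in Gr-1lo cells on the log2 scale. The 35 genes of tertiary granules and mature neutrophils summed to 9085 and 7963 CPM in SP Gr-1lo cells and to 5383 and 5504 CPM in BM Gr-1lo cells.

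**Figure D1:**
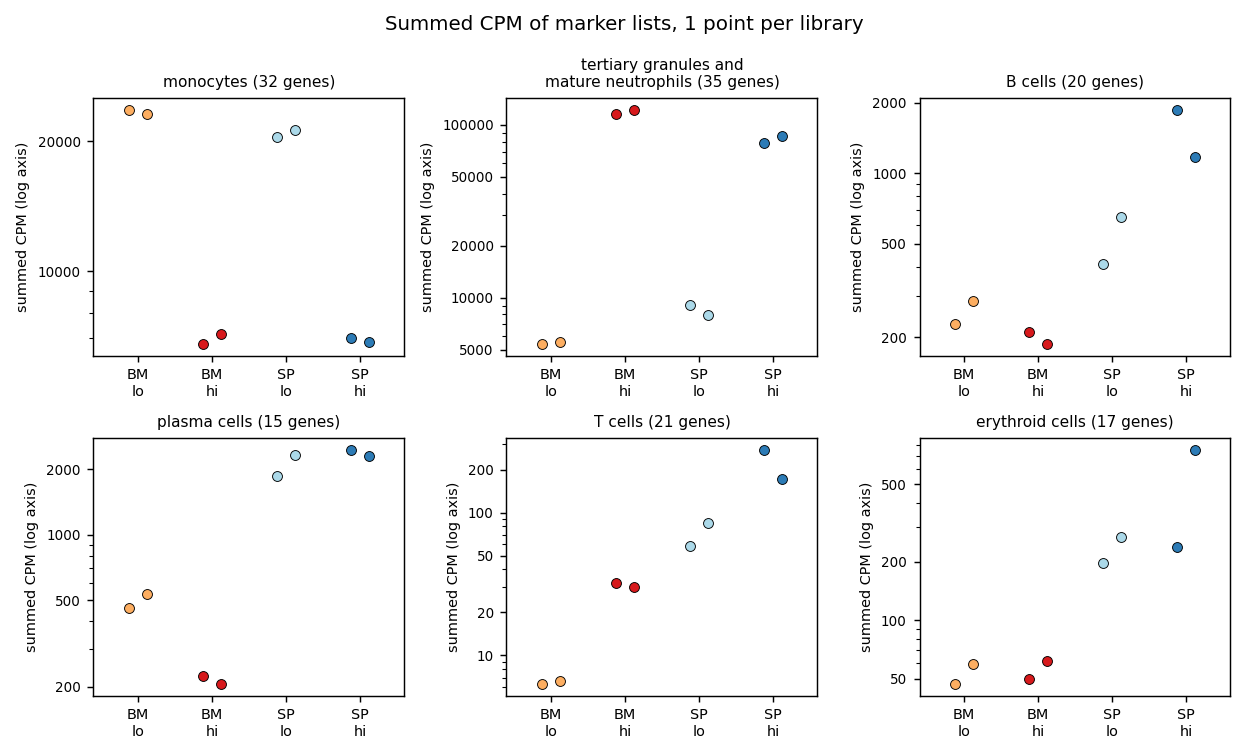
Summed CPM of 6 marker lists in each of the 8 libraries, on log axes; each point is 1 library and the groups are BM Gr-1lo, BM Gr-1hi, SP Gr-1lo and SP Gr-1hi. B cell and T cell lists are highest in the 2 SP Gr-1hi libraries, and the monocyte list has nearly the same sum in Gr-1hi cells of both tissues.

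The difference between the subsets was smaller in the SP than in the BM for nearly all genes whose difference changed. A gene was called when its interaction was at least 2-fold (1 on the log2 scale) with an edgeR adjusted p of at most 0.05. By this rule 1719 genes (9.74%) were called, 1366 positive (7.74%) and 353 negative (2%). Of the 9560 genes of at least 10 CPM, 950 (9.94%) were called, 703 positive (7.35%) and 247 negative (2.58%), and 3832 had an unadjusted p of at most 0.05. The subset difference itself was called for 56.9% of these genes in the BM and for 48.4% in the SP by the same rule. Of the 950 genes, 901 (94.8%) had a smaller absolute difference in the SP, 46 had a larger one, and 3 had differences of at least 2-fold with opposite signs. Over all 9560 genes, called or not, 72.9% had the smaller absolute difference in the SP. Among the 703 positive genes, 683 were higher in Gr-1lo cells of the BM, with a median difference of -3.41 in the BM and -1.82 in the SP on the log2 scale, and 136 of the 703 no longer had a called difference in the SP. Among the 247 negative genes, 241 were higher in Gr-1hi cells of the BM, with medians of 3.82 in the BM and 2.42 in the SP, and 36 had no called difference in the SP. The median interaction of all genes tested was 0.03, and that of the genes of at least 10 CPM was -0.06.

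**Figure D2:**
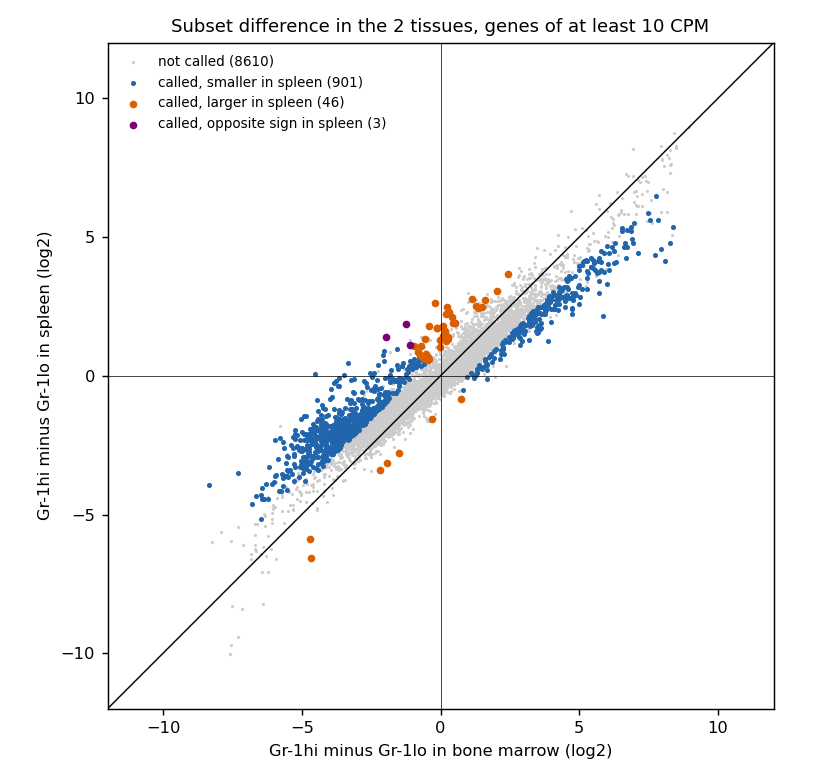
Log2 difference of Gr-1hi minus Gr-1lo cells in the BM (horizontal axis) and in the SP (vertical axis) for the 9560 genes of at least 10 CPM; each point is 1 gene, and the diagonal marks equal differences. Called genes lie mostly on the side of the diagonal nearer to 0 in the SP (901 of 950), with 46 genes further from 0 in the SP and 3 of opposite sign.

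The same interaction can be read as the SP to BM difference of Gr-1hi cells minus that of Gr-1lo cells, which shows the subset in which the values moved. The change in Gr-1hi cells was the larger of the 2 for 697 of the 703 positive genes, whose median SP minus BM difference was 1.45 in Gr-1hi and -0.21 in Gr-1lo cells. The negative genes were split: the change in Gr-1hi cells was larger for 130 of 247 and that in Gr-1lo cells for 117, with medians of -0.76 and 0.67. Thus positive genes were mostly genes of Gr-1lo cells that were higher in Gr-1hi cells of the SP than of the BM, and negative genes were mostly genes of Gr-1hi cells that were lower in SP Gr-1hi cells, higher in SP Gr-1lo cells, or both.

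Among the genes named by size, Btla (ENSMUSG00000052013, chr16:45224315-45257670, GRCm38), an inhibitory receptor of lymphocytes and other leukocytes, had the most positive interaction. Btla measured 44.7 and 46.7 CPM in BM Gr-1lo, 1.98 and 1.98 in BM Gr-1hi, 32.5 and 33.6 in SP Gr-1lo and 38.5 and 30.2 in SP Gr-1hi cells. BM Gr-1hi cells were far below the rest, and the subsets of the SP overlapped. The subset difference was -4.52 in the BM and 0.06 in the SP, an interaction of 4.58 ± 0.19 (edgeR adjusted p = 0.000102). Hmgn1 (ENSMUSG00000040681, chr16:96120618-96127729), a nucleosome-binding protein, had the same form. It measured 11.9 and 12.6 CPM in BM Gr-1lo, 1.35 and 1.07 in BM Gr-1hi, 8.48 and 7.57 in SP Gr-1lo and 13.4 and 8.64 in SP Gr-1hi cells. Its interaction was 3.79 ± 0.33 (edgeR adjusted p = 0.00153). Irf2bpl, a transcriptional regulator, measured 36.96 and 38.5 CPM in BM Gr-1lo, 2.80 and 2.68 in BM Gr-1hi, 47.995 and 35.1 in SP Gr-1lo and 50.9 and 21.5 in SP Gr-1hi cells, and the SP subsets overlapped. Its interaction was 3.58 ± 0.57 (edgeR adjusted p = 0.011). Bin1, a membrane-bending protein, had a subset difference of -3.66 in the BM and -0.07 in the SP, where it was not called (interaction 3.59 ± 0.25, edgeR adjusted p = 0.00153). Ass1, the argininosuccinate synthase that remakes arginine, kept a large difference in the SP. It measured 85.6 and 127 CPM in BM Gr-1lo, 0.486 and 0.867 in BM Gr-1hi, 59.5 and 72.9 in SP Gr-1lo and 6.48 and 5.07 in SP Gr-1hi cells. Its interaction was 3.79 ± 0.41 (edgeR adjusted p = 0.00248). Cltb, a clathrin light chain, had a difference of -5.95 in the BM and -2.33 in the SP (interaction 3.62 ± 0.38, edgeR adjusted p = 0.00222). All 6 calls held without each library in turn and without libraries 5 and 7; that of Irf2bpl was lost by limma-voom with quantile normalization and with no filter on low counts.

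The negative genes named by size with a smaller difference in the SP were surface and granule genes of Gr-1hi cells. Nt5e (ENSMUSG00000032420, chr9:88327197-88372092), the CD73 enzyme that makes adenosine from AMP, measured 0.184 and 0.189 CPM in BM Gr-1lo, 67.8 and 49.99 in BM Gr-1hi, 0.865 and 0.753 in SP Gr-1lo and 15.8 and 28.6 in SP Gr-1hi cells. All 4 groups were separate, with less Nt5e in Gr-1hi and more in Gr-1lo cells of the SP, and the interaction was -3.49 ± 0.57 (edgeR adjusted p = 0.00854). Cd55 (ENSMUSG00000026399, chr1:130439027-130462744), which protects cells from complement, measured 0.430 and 0.623 CPM in BM Gr-1lo, 129 and 132 in BM Gr-1hi, 2.76 and 3.64 in SP Gr-1lo and 64.4 and 88.5 in SP Gr-1hi cells. Its interaction was -3.37 ± 0.31 (edgeR adjusted p = 0.00162). Most of its change was in Gr-1lo cells, where the SP was higher by 2.60 on the log2 scale, against -0.77 in Gr-1hi cells. Sema7a, a membrane-anchored semaphorin, had an interaction of -3.40 and Gabbr1, a GABA-B receptor subunit, one of -3.001. The SP minus BM difference of Gr-1lo cells was 2.53 for Sema7a and 1.74 for Gabbr1 (edgeR adjusted p = 0.0114 and 0.0514). Treml4 (ENSMUSG00000051682, chr17:48264295-48275360), a receptor of the TREM family, differed in form: it measured 4.24 and 2.91 CPM in BM Gr-1lo, 58.8 and 46.8 in BM Gr-1hi, 27.7 and 29.6 in SP Gr-1lo and 70.5 and 65.8 in SP Gr-1hi cells. Its interaction was -2.64 ± 0.24 (edgeR adjusted p = 0.00162). Its Gr-1hi cells differed between tissues by 0.37 (edgeR adjusted p = 0.115). In Gr-1lo cells its level was higher in the SP by 3.004 (edgeR adjusted p = 0.000387). The calls of Nt5e, Cd55, Sema7a, Gabbr1 and Treml4 held without each library in turn. Those of Nt5e and Gabbr1 were lost by limma-voom with quantile normalization, and that of Gabbr1 also without libraries 5 and 7.

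**Figure D3:**
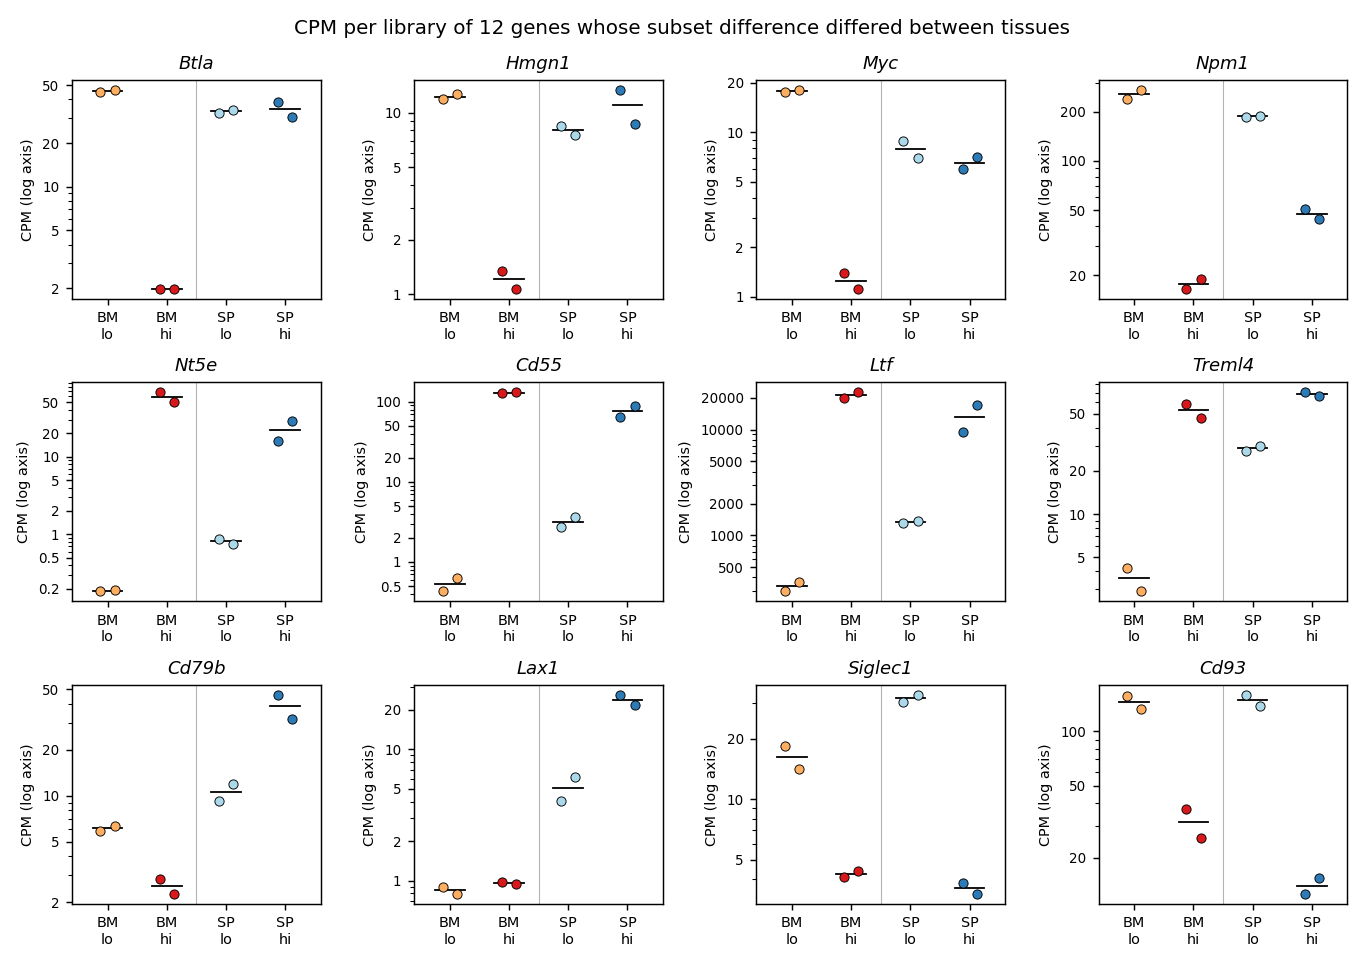
CPM of 12 genes in each of the 8 libraries, on log axes that differ between genes; points are libraries and bars the means of 2. BM Gr-1hi cells are the lowest group for Btla, Hmgn1, Myc and Npm1, the gap between subsets is narrower on both sides in the SP for Nt5e, Cd55 and Ltf, and SP Gr-1hi cells are the highest group for Cd79b and Lax1.

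Genes with a larger difference in the SP were few, and 5 of the 6 positive ones named by size were low in both BM subsets. Lax1 (ENSMUSG00000051998, chr1:133679091-133690108), a membrane adaptor that dampens antigen receptor signals, measured 0.901 and 0.793 CPM in BM Gr-1lo, 0.972 and 0.949 in BM Gr-1hi, 4.05 and 6.14 in SP Gr-1lo and 26.2 and 21.8 in SP Gr-1hi cells. The subsets differed by 0.18 in the BM and by 2.22 in the SP, an interaction of 2.04 ± 0.36 (edgeR adjusted p = 0.0101). Rasgrp3, a Ras activator of B cells, measured 0.287 and 0.472 CPM in BM Gr-1lo, 0.411 and 0.248 in BM Gr-1hi, 2.30 and 2.51 in SP Gr-1lo and 18.4 and 11.4 in SP Gr-1hi cells. Its interaction was 2.82 ± 0.56 (edgeR adjusted p = 0.0141). Grap2, an adaptor of T cell receptor signals, had an interaction of 2.03, and Ccnd2, the cyclin D2 of G1 phase, one of 1.996. Trim7, a ubiquitin ligase, had one of 2.23 and Tcf7, a transcription factor of T cells, one of 2.19. Ccnd2 differed from the others in that it was present in all groups, at 7.83 and 12.7 CPM in BM Gr-1lo, 15.03 and 10.2 in BM Gr-1hi, 8.19 and 10.3 in SP Gr-1lo and 48.7 and 42.2 in SP Gr-1hi cells. In Lax1, Rasgrp3, Grap2, Trim7 and Tcf7 SP Gr-1hi cells were the highest group and did not overlap the others, as in the summed B and T cell lists. The part of lymphoid cells in these interactions was not tested. Without libraries 5 and 7, the interactions of Lax1 and Grap2 stayed called at 1.67 and 1.56, while Rasgrp3, Ccnd2, Trim7 and Tcf7 lost the call. The call of Rasgrp3 was also lost without library 10 or 12, that of Trim7 without any library but 6 or 11, and that of Tcf7 without any but 6. By limma-voom with quantile normalization the calls of Grap2, Rasgrp3, Trim7 and Tcf7 were lost.

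Opposite differences of at least 2-fold were found for Cd79b and St6gal1, beside 1 gene model that is only counted. Cd79b (ENSMUSG00000040592, chr11:106311341-106314762), a signalling chain of the B cell receptor, measured 5.84 and 6.37 CPM in BM Gr-1lo, 2.84 and 2.27 in BM Gr-1hi, 9.29 and 11.9 in SP Gr-1lo and 45.99 and 31.96 in SP Gr-1hi cells. Its Gr-1hi minus Gr-1lo difference was -1.25 in the BM and 1.87 in the SP, an interaction of 3.13 ± 0.31 (edgeR adjusted p = 0.00184) that held without each library and without libraries 5 and 7. St6gal1, a sialyltransferase that makes the ligand of the B cell lectin CD22, went from -1.12 to 1.12 (interaction 2.24 ± 0.46, edgeR adjusted p = 0.0168). Its call was lost without library 7, 8, 9 or 10, without libraries 5 and 7, and by limma-voom with quantile normalization. Of the 20 B cell genes, Cd79b was the 1 called (5% positive against 7.74% of all genes tested), and the list's median interaction was 0.35. Without library 6 the count was 4, without library 8 or 12 it was 2, and DESeq2 called 4. Cd22, the second highest of the list, was higher in Gr-1hi cells in both tissues, at 0.471 and 0.548 CPM in BM Gr-1lo, 2.84 and 1.61 in BM Gr-1hi, 13.4 and 16.8 in SP Gr-1lo and 103 and 74.4 in SP Gr-1hi cells. Its interaction was 0.42 ± 0.43 (edgeR adjusted p = 0.55).

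The negative genes with a larger difference in the SP included receptors of monocytes and macrophages. Siglec1 (ENSMUSG00000027322, chr2:131069220-131086765), the sialoadhesin of macrophages, measured 18.3 and 14.1 CPM in BM Gr-1lo, 4.07 and 4.38 in BM Gr-1hi, 30.4 and 33.1 in SP Gr-1lo and 3.83 and 3.38 in SP Gr-1hi cells. Gr-1lo cells differed between tissues by 0.97 (edgeR adjusted p = 0.00612), against -0.23 in Gr-1hi cells (edgeR adjusted p = 0.348). The interaction was -1.20 ± 0.23 (edgeR adjusted p = 0.0123). In Trem2, Cd93 and Clec10a, a lipid receptor, a phagocyte receptor and a galactose-binding lectin, the change lay in Gr-1hi cells, which were lower in the SP. Cd93 measured 37.2 and 25.7 CPM in BM Gr-1hi and 12.7 and 15.5 CPM in SP Gr-1hi cells, with an interaction of -1.20 ± 0.26 (edgeR adjusted p = 0.0204). Trem2 measured 0.897 and 1.28 CPM in BM Gr-1hi and 0.392 and 0.351 CPM in SP Gr-1hi cells, with an interaction of -1.18. Clec10a measured 0.598 and 1.03 CPM in BM Gr-1hi and 0.241 and 0.0957 CPM in SP Gr-1hi cells, which are 8 and 3 counts. Its interaction of -1.90 rests on these few counts and was between -2.81 and -1.49 with 1 library left out. The call of Siglec1 was lost without library 8, that of Cd93 without library 5, 7, 9 or 12, that of Trem2 without any but 5, 6 or 9 and that of Clec10a without any but 5 or 9. Those of Cd93, Trem2 and Clec10a were also lost without libraries 5 and 7, and that of Cd93 by limma-voom with quantile normalization.

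Among 43 lists of genes by function, stage or cell type, positive interactions were densest in ribosome production. Of the 43 genes of the MYC and ribosome biogenesis list, 30 were called positive and 0 negative (69.8% against 7.74% positive among all genes tested), 41 of 43 were above 0, and the median interaction was 1.91, against 0.03 over all genes tested. Counts of positive calls ran from 25 to 30 without 1 library, were 26 without libraries 5 and 7, and were 24 to 32 in the other fits. Myc (ENSMUSG00000022346, chr15:61985391-61990374), the transcription factor that drives growth and ribosome production, measured 17.5 and 18.1 CPM in BM Gr-1lo, 1.38 and 1.11 in BM Gr-1hi, 8.80 and 6.98 in SP Gr-1lo and 5.94 and 7.08 in SP Gr-1hi cells. It was lowest in BM Gr-1hi cells, and the SP subsets overlapped, so that a difference of -3.83 in the BM was -0.27 in the SP (interaction 3.55 ± 0.26, edgeR adjusted p = 0.00153). Npm1 (ENSMUSG00000057113, chr11:33152287-33163206), the nucleophosmin of nucleoli, measured 239 and 273 CPM in BM Gr-1lo, 16.5 and 19.03 in BM Gr-1hi, 185 and 189.5 in SP Gr-1lo and 50.7 and 44.4 in SP Gr-1hi cells, with no overlap between groups and an interaction of 1.87 ± 0.16 (edgeR adjusted p = 0.00153). Utp20 and Nop58, which process ribosomal RNA and guide its methylation, had interactions of 2.65 and 2.27. Ncl, nucleolin, had the highest level of the list and an interaction near the 2-fold limit, 1.02 ± 0.14 (edgeR adjusted p = 0.0042), whose call was lost without library 5, 6, 9, 10 or 12 and without libraries 5 and 7. The list's median SP minus BM difference was 1.35 in Gr-1hi and -0.36 in Gr-1lo cells. Polr1a, the catalytic subunit of RNA polymerase I, named after its values were seen, ran the other way without passing the fold limit. It measured 30.5 and 29.96 CPM in BM Gr-1lo, 203 and 160.3 in BM Gr-1hi, 28.1 and 26.3 in SP Gr-1lo and 72.5 and 96.2 in SP Gr-1hi cells. Its interaction was -0.95 ± 0.22 (edgeR adjusted p = 0.0223). In the summed monocyte list Gr-1hi cells of the tissues overlapped, though the median SP minus BM difference of its genes was 0.58 there. In the summed B and T cell lists SP Gr-1hi cells were higher. The part of other cells in these interactions was not tested.

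Enzymes that supply growing cells had the same form. In a list of serine, one-carbon and nucleotide synthesis written after values were seen, 16 of 30 genes were called positive and 0 negative (53.3% against 7.74%), with a median interaction of 1.07. Phgdh (ENSMUSG00000053398, chr3:98313170-98339990), the first enzyme of serine synthesis, measured 32.2 and 38.9 CPM in BM Gr-1lo, 0.935 and 1.28 in BM Gr-1hi, 20.2 and 16.5 in SP Gr-1lo and 6.45 and 5.997 in SP Gr-1hi cells. The interaction of Phgdh was 3.45 ± 0.26 (edgeR adjusted p = 0.00153). Mthfd1, of the folate cycle, had an interaction of 3.09, Atic, of purine synthesis, one of 2.47 and Impdh2, of guanine nucleotide synthesis, one of 1.51. Each of the 4 was lowest in BM Gr-1hi cells, next in SP Gr-1hi cells and highest in BM Gr-1lo cells, and the groups did not overlap. Of the cytosolic ribosomal protein genes, 13 of 60 were called positive and 0 negative (21.7% against 7.74%), all 60 were above 0, and the median interaction was 0.64. The count was 8 without library 5, 6 without library 9 and 8 without libraries 5 and 7. Rpl12 measured 316 and 357 CPM in BM Gr-1lo, 24.1 and 28.6 in BM Gr-1hi, 274 and 246 in SP Gr-1lo and 96.9 and 80.4 in SP Gr-1hi cells. The interaction of Rpl12 was 2.12 ± 0.18 (edgeR adjusted p = 0.00153). Rps9, the highest of the list, measured 856 and 922 CPM in BM Gr-1lo, 742 and 783 in BM Gr-1hi, 891 and 855 in SP Gr-1lo and 908 and 813 in SP Gr-1hi cells. Its interaction was 0.20 ± 0.13 (edgeR adjusted p = 0.339). Other lists of protein handling held smaller counts, in part near the 7.74% of all genes tested, and 0 negative calls. Called positive were 3 of 18 heat shock genes (16.7%), 3 of 28 genes of the unfolded protein response (10.7%) and 3 of 30 lysosomal genes (10%).

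Of these, Hsph1, an HSP110 chaperone, had an interaction of 2.94 ± 0.36 (edgeR adjusted p = 0.00321), Hspe1, the mitochondrial HSP10, one of 2.21, and Pdia4, a disulfide isomerase of the endoplasmic reticulum, one of 2.33 ± 0.22 (edgeR adjusted p = 0.00162). Hspa8, the most abundant heat shock gene, had an interaction of -0.06. The lysosomal count was 1 without library 5. Without libraries 5 and 7, the heat shock and unfolded protein response counts were 5 each. The unfolded protein response list held 2 negative calls without library 6 and 1 without library 5, 8 or 9. Median interactions of the 3 lists were 0.34, 0.31 and -0.13.

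DNA replication genes and mitosis genes gave different counts. Of 42 DNA replication genes, 11 were called positive and 0 negative (26.2% against 7.74%), with a median interaction of 0.64. Limma-voom with quantile normalization, which called 794 genes in all against 1719 by edgeR, called 3 of this list positive. Mcm6, a subunit of the replicative helicase, measured 134 and 159 CPM in BM Gr-1lo, 8.67 and 9.95 in BM Gr-1hi, 109.8 and 93.2 in SP Gr-1lo and 15.7 and 13.6 in SP Gr-1hi cells. The interaction of Mcm6 was 1.19 ± 0.19 (edgeR adjusted p = 0.00727). Pola2, of DNA polymerase alpha, had an interaction of 1.335, Rpa1, which coats single-stranded DNA, one of 1.25 and Pole, of DNA polymerase epsilon, one of 1.01. The call of Mcm6 was lost without library 5, that of Rpa1 without library 9 and that of Pole without any but 10 or 11. The count of calls rested on single libraries: it was 2 without library 5 or 9, 3 without library 8 or 12, and 5 without library 7 or without both 5 and 7. Of 45 mitosis genes, 0 were called in either direction by edgeR, 2 had an unadjusted p of at most 0.05, DESeq2 and limma-voom called 0 as well, and the median interaction was -0.04. Their subset difference was a median of -2.17 in the BM and -2.20 in the SP on the log2 scale. Mki67, the proliferation antigen Ki-67, measured 886 and 953 CPM in BM Gr-1lo, 174 and 260.2 in BM Gr-1hi, 764 and 763 in SP Gr-1lo and 152 and 188 in SP Gr-1hi cells. Its interaction was -0.09 ± 0.25 (edgeR adjusted p = 0.845), and that of Top2a, the topoisomerase of dividing cells, was 0.04 ± 0.32 (edgeR adjusted p = 0.954). Nuclear genes of oxidative phosphorylation gave 0 calls by edgeR, DESeq2 and limma-voom among 58 gene identifiers, 5 of them with an unadjusted p of at most 0.05, and a median interaction of -0.03. Among the 13 mitochondrially encoded genes, listed after values were seen, 3 were called positive and 0 negative (23.1% against 7.74%), with a median of 0.51. They were mt-Nd2 at 1.44, mt-Nd1 at 1.37 and mt-Nd3 at 1.21, all of them subunits of complex I.

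Among the same lists, negative interactions were densest in the secondary granule genes. Of 19 genes, 12 were called negative and 0 positive (63.2% against 2% negative among all genes tested), all 19 were below 0, and the median interaction was -1.83. Between 10 and 17 were called without 1 library, 11 without libraries 5 and 7, and 9 to 15 in the other fits. Ltf (ENSMUSG00000032496, chr9:111019271-111042767), lactoferrin, measured 295 and 365 CPM in BM Gr-1lo, 19965 and 22640.4 in BM Gr-1hi, 1314 and 1372 in SP Gr-1lo and 9602 and 16937 in SP Gr-1hi cells. The interaction of Ltf was -2.71 ± 0.34 (edgeR adjusted p = 0.00377). Libraries 5 and 6 differed by more than the libraries of any other group, yet neither reached BM Gr-1hi cells, and Ltf was higher in SP Gr-1lo than in BM Gr-1lo cells. Lcn2 (ENSMUSG00000026822, chr2:32384633-32388252), which binds bacterial siderophores, measured 429 and 361 CPM in BM Gr-1lo, 12537 and 13139 in BM Gr-1hi, 1062 and 935 in SP Gr-1lo and 5691 and 8702 in SP Gr-1hi cells. The interaction of Lcn2 was -2.17 ± 0.27 (edgeR adjusted p = 0.00362). Ngp, a neutrophil granule protein of the cathelicidin family, measured 1129.9 and 1052 CPM in BM Gr-1lo, 26964 and 31326 in BM Gr-1hi, 3229 and 3178 in SP Gr-1lo and 11941 and 22244 in SP Gr-1hi cells. The interaction of Ngp was -2.32 ± 0.35 (edgeR adjusted p = 0.0062). Cd177, a neutrophil surface glycoprotein, had an interaction of -1.92 ± 0.25 (edgeR adjusted p = 0.00383) and Pglyrp1, which binds bacterial peptidoglycan, one of -1.37 ± 0.18 (edgeR adjusted p = 0.00398). The list's median SP minus BM difference was -0.77 in Gr-1hi and 0.96 in Gr-1lo cells, so both subsets contributed. In the same Gr-1lo libraries Ly6g was 5.74 and 8.23 CPM in the SP and 3.07 and 5.35 CPM in the BM, and the part of neutrophils in the Gr-1lo sort was not tested. Cebpe, the transcription factor of this stage, also had a negative interaction, -1.38 ± 0.34 (edgeR adjusted p = 0.0314), a call lost without any library but 5 or 6 and without both 5 and 7. Of the 16 primary granule genes, which are made earlier, 0 were called negative and 2 positive (12.5% against 7.74%). These were Nkg7 and Cst7, both also expressed by cytotoxic lymphocytes. Without library 5, 8, 11 or 12 the positive count was 1, and without library 6 the negative count was 2.

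Promoters of the lists that moved most in each direction were searched for the 8 letters GAGGAAGT, the core of the site bound by PU.1, a factor of both granulocytes and monocytes, and for CACGTG, the E-box bound by MYC, on both strands in the 250 bases before the RefSeq start of each gene. Of the secondary granule genes with a promoter in the table, 3 of 17 (17.6%) held GAGGAAGT, as did 4 of 36 (11.1%) of the MYC and ribosome biogenesis genes, against 2.44% of 27025 promoters of the same length. CACGTG was in 1 of 17 and 2 of 36 (5.56%), against 6.05% of all promoters. Of the other motifs searched, TTGCGCAA, bound by C/EBP factors, was in none of either list and in 0.17% of all promoters, GGANTTTCC, bound by NF-kB, in 1 of 17 and 0 of 36 (1.05% of all promoters). AAANNGAAA, of interferon response elements, was in 1 of 17 and 2 of 36 (9.525% of all promoters), and TTTGAA, of cell-cycle genes, in 3 of 17 and 2 of 36 (16.3%). Of the 7119 promoters of genes of at least 10 CPM, 3.01% held GAGGAAGT, 9.23% CACGTG and 0.323% TTGCGCAA. GGANTTTCC was in 1.15% of these 7119, AAANNGAAA in 7.61% and TTTGAA in 10.75%. Among called MYC and ribosome biogenesis genes, CACGTG was in 0 of 24 promoters and GAGGAAGT in 4. None of the 6 motifs contains another. The promoters of Itgb2l, a beta integrin chain of the secondary granule list (interaction -2.18), and of Noc3l and Nop14, ribosome assembly factors (interactions 3.16 and 2.23), are shown, chosen after values were seen, because the same letters stood before genes that moved in opposite directions. They lie at chr16:96443615-96443864, chr19:38819238-38819487 and chr5:34660149-34660398 of GRCm38.p6, all on the minus strand, and are written 5′ to 3′ with the match, read on either strand, in capitals.
Itgb2l: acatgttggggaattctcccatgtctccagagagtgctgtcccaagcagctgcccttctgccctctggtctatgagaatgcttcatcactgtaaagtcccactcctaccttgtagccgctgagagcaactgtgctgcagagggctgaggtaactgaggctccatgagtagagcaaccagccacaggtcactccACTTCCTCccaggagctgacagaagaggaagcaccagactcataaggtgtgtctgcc
Noc3l: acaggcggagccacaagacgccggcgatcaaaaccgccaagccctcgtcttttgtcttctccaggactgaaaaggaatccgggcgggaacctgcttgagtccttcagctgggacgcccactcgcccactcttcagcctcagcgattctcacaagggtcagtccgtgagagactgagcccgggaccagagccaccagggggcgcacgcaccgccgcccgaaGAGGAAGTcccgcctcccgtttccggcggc
Nop14: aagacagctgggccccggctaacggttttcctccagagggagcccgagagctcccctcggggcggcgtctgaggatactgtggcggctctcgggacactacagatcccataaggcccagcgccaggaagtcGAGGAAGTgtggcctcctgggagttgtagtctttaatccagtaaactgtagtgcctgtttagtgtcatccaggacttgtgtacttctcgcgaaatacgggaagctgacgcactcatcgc
The match began 57 bases before the start in Itgb2l, 30 in Noc3l and 119 in Nop14, and a match of letters is a description and no evidence of binding.

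Genes of tertiary granules and mature neutrophils were negative less densely. Of 35 genes, 7 were called negative and 0 positive (20% against 2%), 27 were below 0, and the median interaction was -0.59. S100a9 (ENSMUSG00000056071, chr3:90692632-90695721), a subunit of calprotectin and the most abundant gene of the list, measured 1492 and 1579 CPM in BM Gr-1lo, 45181 and 50285 in BM Gr-1hi, 3614 and 2912 in SP Gr-1lo and 26707 and 32892 in SP Gr-1hi cells. The interaction of S100a9 was -1.77 ± 0.21 (edgeR adjusted p = 0.00321). S100a8, its partner, had an interaction of -1.65 ± 0.23 (edgeR adjusted p = 0.0044), and both were lower in SP than BM Gr-1hi cells and higher in SP than BM Gr-1lo cells, with no overlap. Fpr1 and Fpr2, receptors of bacterial formyl peptides, had interactions of -1.28 and -1.35, and C5ar1, the receptor of complement C5a, one of -1.18. These 3 and S1pr1, at -3.71, were the 4 negative calls among 22 chemoattractant receptors (18.2% against 2%). Cxcr3 at 2.07 was the 1 positive call (4.55% against 7.74%). S1pr1 had 8 counts in all in BM Gr-1lo cells, and the call of Cxcr3 was lost without library 9 or 10 and without both 5 and 7. Cxcr2, the chemokine receptor of neutrophils, was kept apart in both tissues, at 12.2 and 15.6 CPM in BM Gr-1lo, 2525 and 2299.7 in BM Gr-1hi, 26.9 and 23.4 in SP Gr-1lo and 2760.3 and 2269 in SP Gr-1hi cells. Its interaction was -0.79 ± 0.21 (edgeR adjusted p = 0.038), which missed the fold limit. Slc2a3, a glucose transporter, was the 1 gene called among 28 gene identifiers of glycolysis and the pentose phosphate path (3.57% negative against 2%). It measured 16.2 and 20.5 CPM in BM Gr-1lo, 2128 and 2175 in BM Gr-1hi, 31.8 and 32.6 in SP Gr-1lo and 1107 and 1296 in SP Gr-1hi cells. The interaction of Slc2a3 was -1.65 ± 0.18 (edgeR adjusted p = 0.00245).

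Cholesterol synthesis was another list with several negative calls, and there the change lay in Gr-1hi cells. Of 22 genes, 6 were called negative and 0 positive (27.3% against 2%), 19 were below 0, and the median interaction was -0.78. By limma-voom with quantile normalization 2 were negative. The median SP minus BM difference was -1.14 in Gr-1hi and -0.28 in Gr-1lo cells. Msmo1 (ENSMUSG00000031604, chr8:64718139-64733792), a sterol oxidase, measured 23.05 and 22.03 CPM in BM Gr-1lo, 117 and 149 in BM Gr-1hi, 22.4 and 22.1 in SP Gr-1lo and 51.9 and 60.2 in SP Gr-1hi cells. The interaction of Msmo1 was -1.23 ± 0.18 (edgeR adjusted p = 0.00518). BM Gr-1hi cells were the highest group for Msmo1, and Gr-1lo cells of the tissues overlapped. Fdft1 and Idi1 had interactions of -1.04 and -1.001, and Srebf2, the transcription factor of the pathway, one of -0.87 ± 0.13 (edgeR adjusted p = 0.00518), below the fold limit. The count of 6 was 2 without library 7 or 11, 3 without library 10, 13 without library 9 and 3 without both 5 and 7. The calls of Fdft1 and Idi1 were lost without library 7, 10, 11 or 12 and without both 5 and 7.

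**Figure D4:**
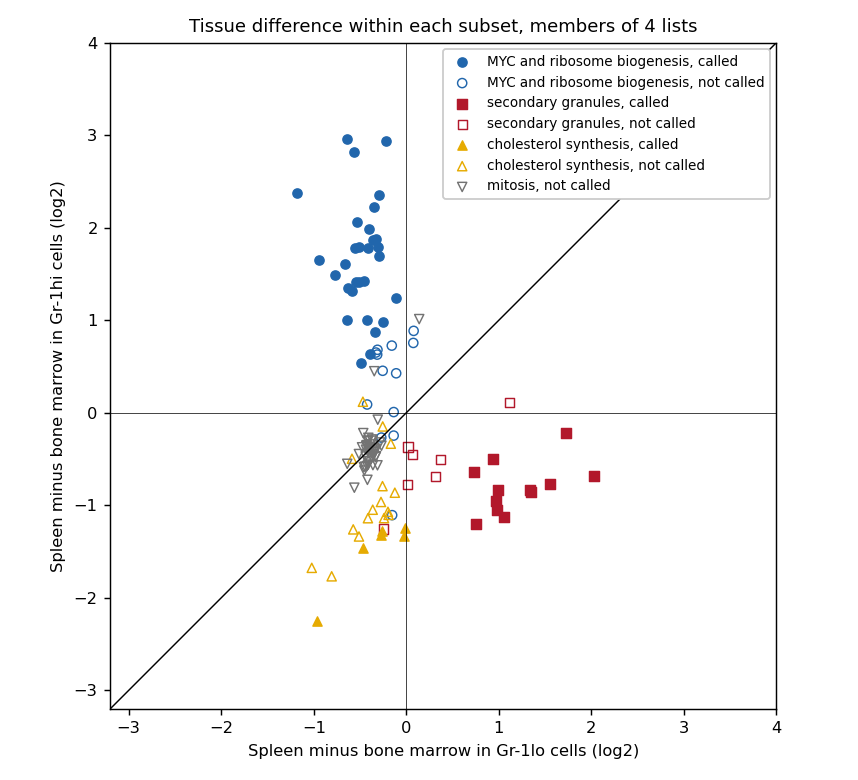
Log2 SP minus BM difference in Gr-1lo cells (horizontal axis) and in Gr-1hi cells (vertical axis) for the members of 4 lists; filled symbols are called genes, open symbols genes not called, and the diagonal marks no interaction. Ribosome biogenesis genes lie above the diagonal with medians of 1.35 and -0.36, secondary granule genes below it and mostly to the right of 0, cholesterol genes mostly below it and left of 0, and mitosis genes close to it.

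Genes of monocytes were mostly not called: 4 of 32 were positive and 2 negative (12.5% and 6.25%, against 7.74% and 2%), with a median interaction of 0.02. Irf8 (ENSMUSG00000041515, chr8:120736358-120756694), the transcription factor of monocyte fate, measured 228 and 337 CPM in BM Gr-1lo, 5.38 and 10.49 in BM Gr-1hi, 192 and 237 in SP Gr-1lo and 50.99 and 46.6 in SP Gr-1hi cells. The interaction of Irf8 was 3.02 ± 0.43 (edgeR adjusted p = 0.00629). Klf4, which acts in the same fate, had an interaction of 2.37 ± 0.39 (edgeR adjusted p = 0.00879), and both calls were lost without libraries 5 and 7. Pou2f2, a transcription factor shared with B cells, had an interaction of 1.30 and Ahnak, a large scaffold protein, one of 2.36, a call lost without library 5, 7, 8 or 11 and without both 5 and 7. Psap and Mpeg1, the most abundant genes of the list, had interactions of -0.26 and 0.91 and were not called. The negative calls were Treml4 and Cd300e, at -1.36, a call lost without any library but 6 or 9. The positive count was 10 without library 10 and 1 without libraries 5 and 7. The negative count was 4 without library 6, 7 without library 9, and 1 without library 5, 7, 8, 10 or 12. Csf1r, of the same list, was not called, at 0.41 ± 0.26 (edgeR adjusted p = 0.32).

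Genes induced by interferon were seldom called. Of 37 type I interferon-stimulated genes, 2 were called positive (5.41%, below the 7.74% of all genes tested) and 0 negative, with a median interaction of 0.38. Slfn5, a Schlafen family member, measured 237 and 213 CPM in BM Gr-1lo, 137 and 156 in BM Gr-1hi, 303 and 338 in SP Gr-1lo and 526 and 485 in SP Gr-1hi cells. The interaction of Slfn5 was 1.27 ± 0.15 (edgeR adjusted p = 0.00287), and Mx1, an antiviral GTPase, had an interaction of 2.15 ± 0.37 (edgeR adjusted p = 0.00942) that was lost without libraries 5 and 7. The count of 2 was 7 without library 10 and 1 without libraries 5 and 7. All 17 interferon-gamma-induced GTPases had a positive value, with a median of 1.46, but 0 were called by edgeR, 2 had an unadjusted p of at most 0.05, DESeq2 called 2 and limma-voom 0, and 3 were called without library 10. The libraries of the groups disagreed: Gbp2 measured 163 and 441 CPM in BM Gr-1lo, 263 and 744 in BM Gr-1hi, 369 and 697 in SP Gr-1lo and 2547 and 1621 in SP Gr-1hi cells, with an interaction of 1.23 ± 0.98 (edgeR adjusted p = 0.443). MHC class I genes gave 0 calls among 22 by edgeR, DESeq2 and limma-voom, 3 of them with an unadjusted p of at most 0.05, and Fc gamma receptors and their partners 0 among 10, with 5 at an unadjusted p of at most 0.05. Without library 10 each of these lists held 1 positive call. H2-D1, the most abundant class I gene, measured 1407 and 1736 CPM in BM Gr-1lo, 5115 and 5094 in BM Gr-1hi, 1704 and 1743 in SP Gr-1lo and 5840.5 and 5248 in SP Gr-1hi cells. Its interaction was -0.01 ± 0.17 (edgeR adjusted p = 0.968). Among 11 MHC class II genes, 2 of lower level were called positive, H2-Oa at 1.83 and H2-DMb2 at 1.29, and 0 were called without library 5, 7, 9 or 12 or without both 5 and 7. With all libraries the positive share of this list was 18.2%, against 7.74% of all genes tested. Cd74, the invariant chain, had 1.28 ± 0.62 (edgeR adjusted p = 0.211).

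Signalling and surface genes were called in both directions. Of 25 Toll-like receptors and adaptors, 4 were positive and 1 negative (16% and 4%, against 7.74% and 2% among all genes tested), and without libraries 5 and 7 the counts were 1 and 0. The median interaction was 0.001, that of 39 TNF and NF-kB response genes -0.26, that of 20 integrins and selectins -0.10 and that of 11 genes of the BAFF and related TNF family 0.19, against 0.03 over all genes tested. Tlr9, which senses unmethylated DNA, measured 42.6 and 50.9 CPM in BM Gr-1lo, 1.46 and 2.39 in BM Gr-1hi, 51.6 and 67.9 in SP Gr-1lo and 12.1 and 10.49 in SP Gr-1hi cells. The interaction of Tlr9 was 2.21 ± 0.31 (edgeR adjusted p = 0.00477). Cd180 had an interaction of 2.18, and Tlr5, the flagellin receptor, one of -1.22. Of the TNF and NF-kB response genes, Cd40 at 2.56 and Icam1 at 2.13 were positive and Nfkbie at -1.22 and Tnf at -1.49 negative (5.13% in each direction). The call of Tnf was lost without any library but 5 or 6, and those of Cd40, Icam1 and Nfkbie held without each. Limma-voom with quantile normalization called 0 genes of the TNF and NF-kB list positive, so Cd40 and Icam1 lost their calls there. Of the integrins and selectins, Itga5 and Itga4, which pair with beta 1 to bind fibronectin and VCAM1, were positive at 2.03 and 1.38. Itgax, the CD11c chain, was negative: it measured 1.13 and 0.605 CPM in BM Gr-1lo, 34.1 and 20.9 in BM Gr-1hi, 11.1 and 16.4 in SP Gr-1lo and 81.9 and 83.8 in SP Gr-1hi cells. The interaction of Itgax was -2.41 ± 0.46 (edgeR adjusted p = 0.0148), a call lost without library 5 or 12 and without libraries 5 and 7. In the integrin list 3 were positive and 2 negative in all (15% and 10%). In the BAFF and related TNF family, 3 of 11 were positive and 2 negative (27.3% and 18.2%). Ltb (ENSMUSG00000024399, chr17:35194439-35196320), lymphotoxin beta, measured 1.25 and 1.15 CPM in BM Gr-1lo, 88.5 and 71.95 in BM Gr-1hi, 6.06 and 5.45 in SP Gr-1lo and 131 and 113 in SP Gr-1hi cells. The interaction of Ltb was -1.65 ± 0.20 (edgeR adjusted p = 0.00321) and stayed called without each library and without libraries 5 and 7. Limma-voom with quantile normalization called 0 genes of this list negative, so the call of Ltb was lost there. Tnfsf13b, which encodes BAFF, the survival factor of B cells, measured 7.62 and 7.10 CPM in BM Gr-1lo, 85.2 and 74.5 in BM Gr-1hi, 11.3 and 10.49 in SP Gr-1lo and 37.4 and 63.4 in SP Gr-1hi cells, and Gr-1hi cells were above Gr-1lo cells in both tissues. Its interaction was -1.23 ± 0.31 (edgeR adjusted p = 0.0336), and the call was lost without any library but 6 or 10 and without both 5 and 7. The 3 positive members, Tnfsf8, Tnfsf9 and Tnfsf10, were below 10 CPM in every library, and 0 of them were called without library 9 or without both 5 and 7. Dusp5, a phosphatase of ERK, was negative at -1.69 among the immediate-early genes, where Myc, Dusp2 and Atf3 were positive at 3.55, 1.11 and 1.43; the calls of Dusp5, Dusp2 and Atf3 were each lost without several single libraries. With any 1 library left out, positive calls ran from 0 to 3 in the BAFF list (0 without library 9) and from 2 to 4 in the Toll-like receptor list (2 without library 7 or 12). Negative calls ran from 1 to 4 in the TNF and NF-kB list (4 without library 6) and from 1 to 5 in the integrin list (5 without library 6, 4 without library 9, 10 or 11 and 1 without library 5 or 12). Without libraries 5 and 7, negative calls were 5 in the TNF and NF-kB list and 1 each in the integrin and BAFF lists.

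Lists of lymphoid genes held positive calls beside the summed B, T and plasma cell levels given above, and the part of such cells was not tested. Of 14 plasma cell genes tested, 8 were positive and 0 negative (57.1% against 7.74%), with a median interaction of 1.72. By limma-voom with quantile normalization 2 were positive. Ighg1 (ENSMUSG00000076614, chr12:113325240-113330523), a constant region of IgG, measured 47.1 and 51.2 CPM in BM Gr-1lo, 8.64 and 9.82 in BM Gr-1hi, 391 and 305 in SP Gr-1lo and 298 and 448 in SP Gr-1hi cells. The interaction of Ighg1 was 2.51 ± 0.28 (edgeR adjusted p = 0.00283). SP libraries overlapped and were all above BM libraries, where Gr-1lo cells held more than Gr-1hi cells. Ighg2c had an interaction of 3.07 and Igkc, the kappa constant region, one of 1.19, while Xbp1, a factor of secretion, measured 241 and 215 CPM in BM Gr-1lo, 91.3 and 91.5 in BM Gr-1hi, 275 and 246 in SP Gr-1lo and 247 and 204 in SP Gr-1hi cells, with an interaction of 1.11. The count of 8 was 3 without library 5 or 7, 5 without library 8, 4 without library 9 or 12, and 2 without library 10 or without both 5 and 7, where 1 gene was negative. In a list of antigen receptor signalling genes written after values were seen, 10 of 36 were positive and 2 negative (27.8% and 5.56%, against 7.74% and 2%). The median was 0.33, and 7 of the 12 had the larger difference in the SP. By limma-voom with quantile normalization 4 were positive. The count of 10 was 6 without libraries 5 and 7. Vav2, an exchange factor, measured 11.8 and 10.8 CPM in BM Gr-1lo, 2.06 and 1.44 in BM Gr-1hi, 13.1 and 16.1 in SP Gr-1lo and 14.5 and 9.89 in SP Gr-1hi cells. The interaction of Vav2 was 2.43 ± 0.33 (edgeR adjusted p = 0.00411). Its SP subsets overlapped, and BM Gr-1hi cells were the lowest group. Cd3d, a chain of the T cell receptor complex, was negative at -3.37, with 13 counts in all in BM Gr-1lo cells. The call of Cd3d was lost without library 11. Among 21 T cell genes 2 were positive, Tcf7 and Cd28, and 4 negative, among them Cd3d, Cd6 and Il7r (9.52% and 19.0%). The positive count was 4 without library 6 and 0 without any other library or without both 5 and 7, and the negative count was 1 without library 11 and 2 without library 7, 8, 9 or 10. In the NK cell list 0 of 12 genes were called by edgeR, DESeq2 or limma-voom, with 1 at an unadjusted p of at most 0.05. Of 9 SLAM family receptors, listed after values were seen, 4 were positive and 0 negative (44.4% against 7.74%), with a median of 1.37. Slamf6 measured 4.73 and 5.12 CPM in BM Gr-1lo, 0.935 and 1.49 in BM Gr-1hi, 6.80 and 9.85 in SP Gr-1lo and 18.8 and 12.1 in SP Gr-1hi cells. The interaction of Slamf6 was 2.92 ± 0.42 (edgeR adjusted p = 0.0051). Ly9 had an interaction of 2.28, Cd48 one of 2.21 and Cd244a one of 1.06. The call of Cd244a was lost without library 5, 7, 8, 9, 10 or 11, and without libraries 5 and 7 the count of the list was 2, with Cd48 and Cd244a no longer called.

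Markers of other cells were called in both directions, against 7.74% positive and 2% negative among all genes tested. Of 16 eosinophil and basophil genes, 1 was called positive and 2 negative (6.25% and 12.5%). The median interaction of this list was -1.40, with 14 genes below 0 and 2 above, Siglecf among the 2. Siglecf, the sialic acid receptor of eosinophils, was positive with 6.39 and 5.55 CPM in BM Gr-1lo, 14.8 and 11.7 in BM Gr-1hi, 4.71 and 4.18 in SP Gr-1lo and 35.4 and 25.2 in SP Gr-1hi cells. The interaction of Siglecf was 1.62 ± 0.28 (edgeR adjusted p = 0.00845). Prg2 and Ear1, of eosinophils, were negative at -3.62 and -3.88, and both calls were lost without library 5, 6, 7, 8, 9 or 12 and without both 5 and 7. The negative count of this list was 5 without library 10 and 0 without library 7, 8 or 9 or without both 5 and 7. C1qa and C1qc, complement genes of macrophages, were negative at -1.49 and -1.96, and both were higher in Gr-1hi cells of either tissue. C1qc measured 0.819 and 0.907 CPM in BM Gr-1lo, 12.6 and 7.35 in BM Gr-1hi, 5.66 and 8.93 in SP Gr-1lo and 21.6 and 21.9 in SP Gr-1hi cells, and its call was lost without library 8, 11 or 12. Of the 12 erythroid genes tested, Tmcc2 was called with all libraries, at 1.99, and 0 were negative. Without library 6 more erythroid genes were negative, and so were more of all genes of at least 10 CPM. Of 8 platelet genes Gp1bb was called, at -1.92, a call lost without library 7, 11 or 12, and more were negative without library 6. Among 18 dendritic cell genes 3 were positive, led by Kmo at 3.12, and 2 negative, Itgax and Clec10a (16.7% and 11.1%). The positive count was 1 without library 5, 8, 9 or 11, the negative count was 0 without library 12 and 1 without library 5, 6, 7, 8, 10 or 11, and without both 5 and 7 the counts were 1 and 0. The remaining lists held at most 1 call in a direction: Ncf1 among 8 genes of the NADPH oxidase, at -1.03 with the call lost without any library but 6 or 10, Nt5e among 13 suppressive effectors, Ccl24 among 15 chemokine ligands, which had 0 counts in both BM Gr-1hi libraries and under 1 CPM elsewhere, and Cebpe and Flt3 among 17 progenitor genes. Without libraries 5 and 7 these counts were 0 for the NADPH oxidase and the progenitors in both directions, and the chemokine ligands held 0 positive and 1 negative call. Without library 6, more genes of the NADPH oxidase and of the suppressive effectors were negative, as among all genes of at least 10 CPM. In 13 genes of T cell costimulation, 4 were positive, Cd48, Cd40, Tnfsf9 and Cd244a (30.8%), and the count was 2 without library 5, 7, 8, 9, 10 or 11 and 1 without both 5 and 7. The Siglec1, C1qa and C1qc calls were the 3 negative ones among 18 splenic macrophage genes (16.7%), a count that moved by more than 1.5 times without library 7, 8 or 12. Siglec1 had the larger difference in the SP, and C1qa and C1qc the smaller. Vcam1 was the 1 positive call of that list (5.56%), at 1.39, and was lost without library 5, 6, 8, 10 or 11.

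Abundant members of the lists are given whatever their call. Il1b, the inflammatory cytokine, measured 5.45 and 11.4 CPM in BM Gr-1lo, 922 and 1301 in BM Gr-1hi, 26.4 and 67.9 in SP Gr-1lo and 3135 and 3509.7 in SP Gr-1hi cells. Its interaction was -0.90 ± 0.72 (edgeR adjusted p = 0.44). Cd274, the inhibitory ligand PD-L1, measured 8.58 and 19.1 CPM in BM Gr-1lo, 70.2 and 156 in BM Gr-1hi, 40.6 and 74.8 in SP Gr-1lo and 649 and 441 in SP Gr-1hi cells. Its interaction was 0.21 ± 0.79 (edgeR adjusted p = 0.885). Both genes were higher in SP than in BM libraries within each subset, with no overlap. Gapdh, of glycolysis, measured 1673 and 1744 CPM in BM Gr-1lo, 3201 and 3470.2 in BM Gr-1hi, 1529.6 and 1441 in SP Gr-1lo and 2337 and 2268 in SP Gr-1hi cells. Its interaction was -0.33 ± 0.13 (edgeR adjusted p = 0.117). Spi1, which encodes PU.1, measured 253 and 269 CPM in BM Gr-1lo, 755 and 739 in BM Gr-1hi, 334 and 298 in SP Gr-1lo and 845 and 760.5 in SP Gr-1hi cells. Its interaction was -0.17 ± 0.14 (edgeR adjusted p = 0.429). None of these 4 genes was called. Cybb, the catalytic subunit of the NADPH oxidase, measured 1249 and 1276 CPM in BM Gr-1lo, 2573 and 2999 in BM Gr-1hi, 1493 and 1646 in SP Gr-1lo and 1300.2 and 2151 in SP Gr-1hi cells. Its interaction of -1.01 ± 0.29 passed the fold limit with an edgeR adjusted p of 0.0514, just outside the threshold.

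**Figure D5:**
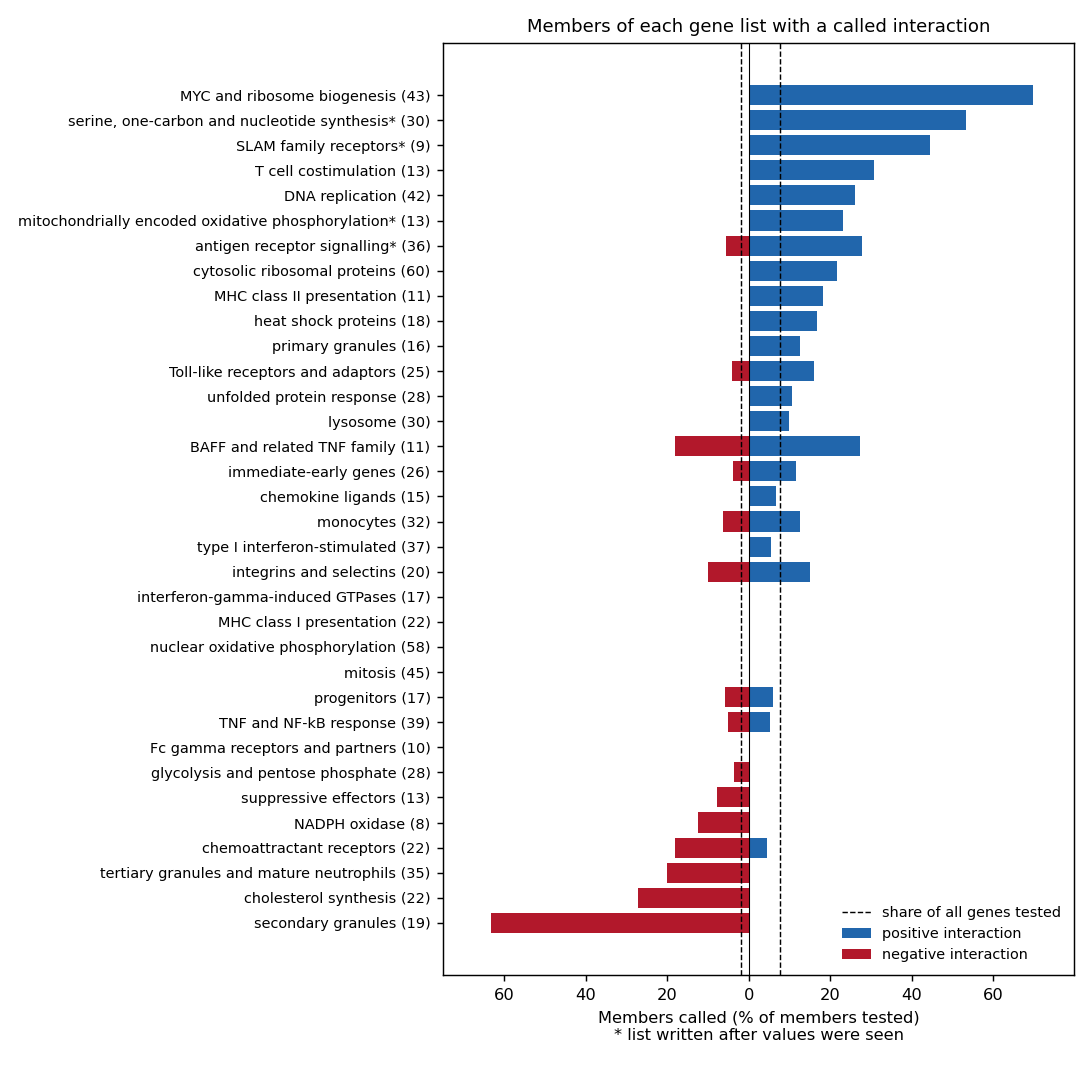
Share of the tested members of each process or stage list with a called positive interaction (bars to the right, %) or negative interaction (bars to the left, %); numbers in brackets are genes tested, dashed lines mark 7.74% and 2% of all genes tested, and asterisks mark lists written after values were seen. Ribosome biogenesis has the longest bar to the right (69.8%) and secondary granules the longest to the left (63.2%).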

How the data were processed

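RNA was measured in 8 libraries, 2 per group, from stranded poly(A) libraries sequenced in pairs. The authors checked reads with FastQC, aligned them with STAR to GRCm38 with GENCODE annotation and counted them per gene with featureCounts, and the deposited table used here holds raw counts. No column of other samples was present. The total count per library was 33453580 to 68316154, which limits precision for genes of few counts. The deposited counts are labelled stranded, but the strand setting of the counting is not given in the sources used here. Whether overlapping antisense genes were told apart is therefore not known.

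From the counts, genes were filtered with filterByExpr, scaled by TMM and fitted with edgeR 4.0.16 (R 4.3.3, robust quasi-likelihood, 1 term per group). Thresholds were an adjusted p of 0.05 and a log2 change of 1. The fit was tested on simulated data of 17650 genes, 200 of them given an interaction of 2 on the log2 scale. Of these 200 genes, 190 were recovered, and 24 unchanged genes were called as well. Alternatives were DESeq2 1.42.0, limma 3.58.1 (voom, quantile normalization), other scalings and filters, and each library left out.

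Named genes were, in each class and sign, up to 6 called genes with the largest interaction, at least 10 CPM in 1 group, at least 10 counts in each group and 1 sign without each library. From each list, up to 4 called genes of smallest p and 2 of highest level were named. Gene models and antigen receptor segments were only counted, and some genes that the rule named are not reported here. Ahnak, Cd300e, Cxcr3, Il7r, Noc3l, Nop14 and Polr1a were named after their values were seen. The samples and gene lists were chosen with earlier results of these data known, and 4 lists were written after values were seen. The labels give no culture, mouse or litter for a library, so p-values measure the spread between libraries that the study's methods call independent biological replicates. Promoters are RefSeq sequences of GRCm38.p6, with chromosome 18 left out.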

Additional observations from a re-analysis of the deposited data

Results flagged for a closer look

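The difference between Gr-1hi and Gr-1lo cells was not the same in the 2 tissues for the genes below, by a test of the difference itself (the interaction, edgeR's adjusted p of at most 0.05), and this is why they are listed. Values are log2 interactions. Of those that had the smaller difference in the SP, the positive ones were Btla at 4.58, Hmgn1 at 3.79, Ass1 at 3.79, Cltb at 3.62, Bin1 at 3.59 and Irf2bpl at 3.58. Of those that had the smaller difference in the SP, the negative ones were Nt5e at -3.49, Sema7a at -3.40, Cd55 at -3.37, Gabbr1 at -3.001, Ltf at -2.71 and Treml4 at -2.64. Of those that had the larger difference in the SP, the positive ones were Rasgrp3 at 2.82, Trim7 at 2.23, Tcf7 at 2.19, Lax1 at 2.04, Grap2 at 2.03 and Ccnd2 at 1.996. Of those that had the larger difference in the SP, the negative ones were Clec10a at -1.90, Cd93 at -1.20, Siglec1 at -1.20 and Trem2 at -1.18. Of those that had differences of opposite sign, the positive ones were Cd79b at 3.13 and St6gal1 at 2.24. Their values by library, and the libraries whose removal changed a call, are given with each gene, and the causes were not tested. In groups of 2 an outlying library cannot be told.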

How the results depend on the processing

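The count of called genes kept within 1.5 times of the main value with RLE or upper-quartile scaling, DESeq2 and no filter. With limma-voom and quantile normalization it was 794 of all genes tested and 475 of those of at least 10 CPM, 440 of them smaller in the SP, 30 larger and 5 of opposite sign. With a filter at 10 CPM before the fit it was 978 of all tested, since fewer genes entered, and DESeq2 gave 5 genes of opposite sign. Without libraries 5 and 7 it was 819 and 595, with 574 smaller and 19 larger. Leaving out 1 library gave 915 to 2488 calls among all genes tested and 628 to 1427 among those of at least 10 CPM, with 21 to 121 larger and 2 to 6 of opposite sign. The highest counts were all without library 6, where 53.2% of the 1427 calls were positive against 74% with all libraries. The share of calls with the smaller difference in the SP was 91.1% to 96.8% in every fit. Of 126 named values, none changed direction in any fit, and the call was lost for 2 with RLE scaling, 2 with upper-quartile scaling, 2 with DESeq2, 47 with limma-voom, 5 with no filter, 7 of 114 with the 10 CPM filter and 41 without libraries 5 and 7. Of 1008 values with 1 library left out, 221 lost the call and 4 gained it. The genes named by size were chosen for 1 sign without each library, and most of the others for their call. The absence of reversals was thus largely set by that choice and is no measure of stability. The cause of the differences between fits was not tested. No paired analysis was possible because the groups share no replicate numbers. With 2 libraries a group and 4 residual degrees of freedom, small interactions are beyond reach.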
